A study of Mus musculus with 7 samples.

Results

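The FOXO transcription factors Foxo1, Foxo3 and Foxo4 and 7 ubiquitin ligase genes of muscle atrophy were followed on the arrays, namely Foxo1, Foxo3, Foxo4, Trim63, Fbxo32, Fbxo30, Fbxo31, Fbxo21, Cblb and Nedd4. The members were every probe, other than control spots, whose gene name or current symbol was one of these names. They were 10 of the 31131 names and 16 of the 39429 probes on the array, and all 16 probes passed the filter on dim signals described below. The study compared quadriceps muscle of WT mice (4 arrays, replicates 1 to 4) and of AR113Q mice (3 arrays, replicates 1 to 3), all labelled as C57BL/6 and 3 months (90 days) old. AR113Q mice are knock-in mice with an expanded CAG repeat, a model of spinobulbar muscular atrophy (SBMA). The labels call the controls WT, whereas the results text of the study describes a knock-in with a shorter repeat as control, and the sources used here do not settle which of them the control arrays hold. The study states that male mice were used. The knock-in allele is expressed from its own locus in every cell type in which that locus is active, so a change in whole muscle RNA is not assigned to the muscle fiber. Cy3-labeled cRNA was prepared from total RNA and hybridized to 60-base oligonucleotide probes, 1 sample per array.

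FOXO factors are transcription factors of the forkhead family. When insulin or growth factor signaling is active, AKT phosphorylates them and they leave the nucleus. When that signaling falls, they enter the nucleus and turn on genes of protein breakdown and autophagy, among them Trim63 and Fbxo32, the ubiquitin ligase genes best known as markers of muscle atrophy. A ubiquitin ligase (E3) chooses the protein to which ubiquitin is attached. RING ligases (Trim63, Cblb) bring the ubiquitin-carrying E2 enzyme to the substrate, HECT ligases (Nedd4) take the ubiquitin over first, and F-box proteins (Fbxo32, Fbxo30, Fbxo31, Fbxo21) are the substrate-binding subunits of SCF complexes built on Skp1, Cul1 and Rbx1.

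The probes of the genes on which the results turn are given first, since the paired probes of a gene gave different values. Each line holds the first 30 of the 60 bases of a probe, 5′ to 3′. Capitals mark the bases that the 2 Foxo4 probes have in common within the 30 shown.
Trim63 probe A_52_P517224: ccaaaacgtcacaggacacttttctacgtt
Trim63 probe A_55_P2106745: atggactactttactctggacttagaacac
Fbxo32 probe A_51_P109369: gagaaggagatctcagggcttaaggagtta
Foxo1 probe A_51_P138044: ttcggaatgacctcatggatggagatacct
Foxo1 probe A_52_P453884: ttctgggagaatgttcgctttctggtctat
Foxo4 probe A_55_P2150901: actttagaGCTAAGGATTGGTGGCAACACA
Foxo4 probe A_55_P2113026: GCTAAGGATTGGTGGCAACACACTCAAGTG
The Foxo4 probes are offset by 8 bases and share 52 bases. The array annotation, on the mm9 build, places the Trim63 probes on chromosome 4 from 133885025 to 133885084 and from 133881557 to 133881616, and the Fbxo32 probe on chromosome 15 from 58011752 to 58011811. The Foxo1 probes lie on chromosome 3 from 52150183 to 52150242 and from 52153289 to 52153348, and the Foxo4 probes on chromosome X from 98454966 to 98455025 and from 98454974 to 98455033. Within their transcripts the Trim63 probes start at bases 1366 and 1016, and the Foxo1 probes at bases 2308 and 4809. Whether a probe lies in coding sequence or in an untranslated region was not analysed here.

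The intensities were background-subtracted by the scanner software and, here, log2-transformed and quantile normalized, so that all values below are log2 signals. On single arrays, between 18768 and 22002 of the 39429 probes passed the background test of the scanner software, and 20991 probes (16577 genes) were well above background on at least 3 arrays and were tested with limma. A probe was called at an adjusted p (Benjamini-Hochberg over all probes tested) of at most 0.05 and an absolute log2 difference of at least 1, and a gene was called if its brightest kept probe was. The 7 arrays lay on 5 slides and were scanned on 1 date. Only slide 2 held both genotypes, with WT replicate 2 and AR113Q replicate 1, and the difference between these 2 arrays is given beside the pooled values.

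Of the 10 member genes, 7 rose in AR113Q muscle (Foxo1, Foxo3, Trim63, Fbxo32, Fbxo30, Fbxo31 and Cblb), none was called lower, and 3 were not called (Foxo4, Fbxo21 and Nedd4). Across all genes tested, 11.2% were called higher and 13.1% lower by the same rule. In the limma fit, 1 member (Nedd4) had a lower signal at an unadjusted p under 0.05, as did 26.6% of all genes. The median log2 difference of the 10 genes was 1.69, whereas that of all genes was -0.01. Of the 16 member probes, 11 were called higher, against 12.2% of all probes tested. The AR113Q arrays lay above all WT arrays for 7 member genes, and 24.2% of all genes did so. Among the classes, 2 of 3 factor genes and 5 of 7 ligase genes were called, and 1 of these factor genes, Foxo3, passed the filter only through the AR113Q arrays. On slide 2 alone, AR113Q was higher for 13 of the 16 member probes and for 49.8% of all probes. For the 8 members well above background on all 7 arrays, which did not pass the filter through the AR113Q arrays, the count was 6. With that filter 10 of 12 member probes were called, and of all 17108 probes 1862 were called higher and 1891 lower.

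**Figure D1:**
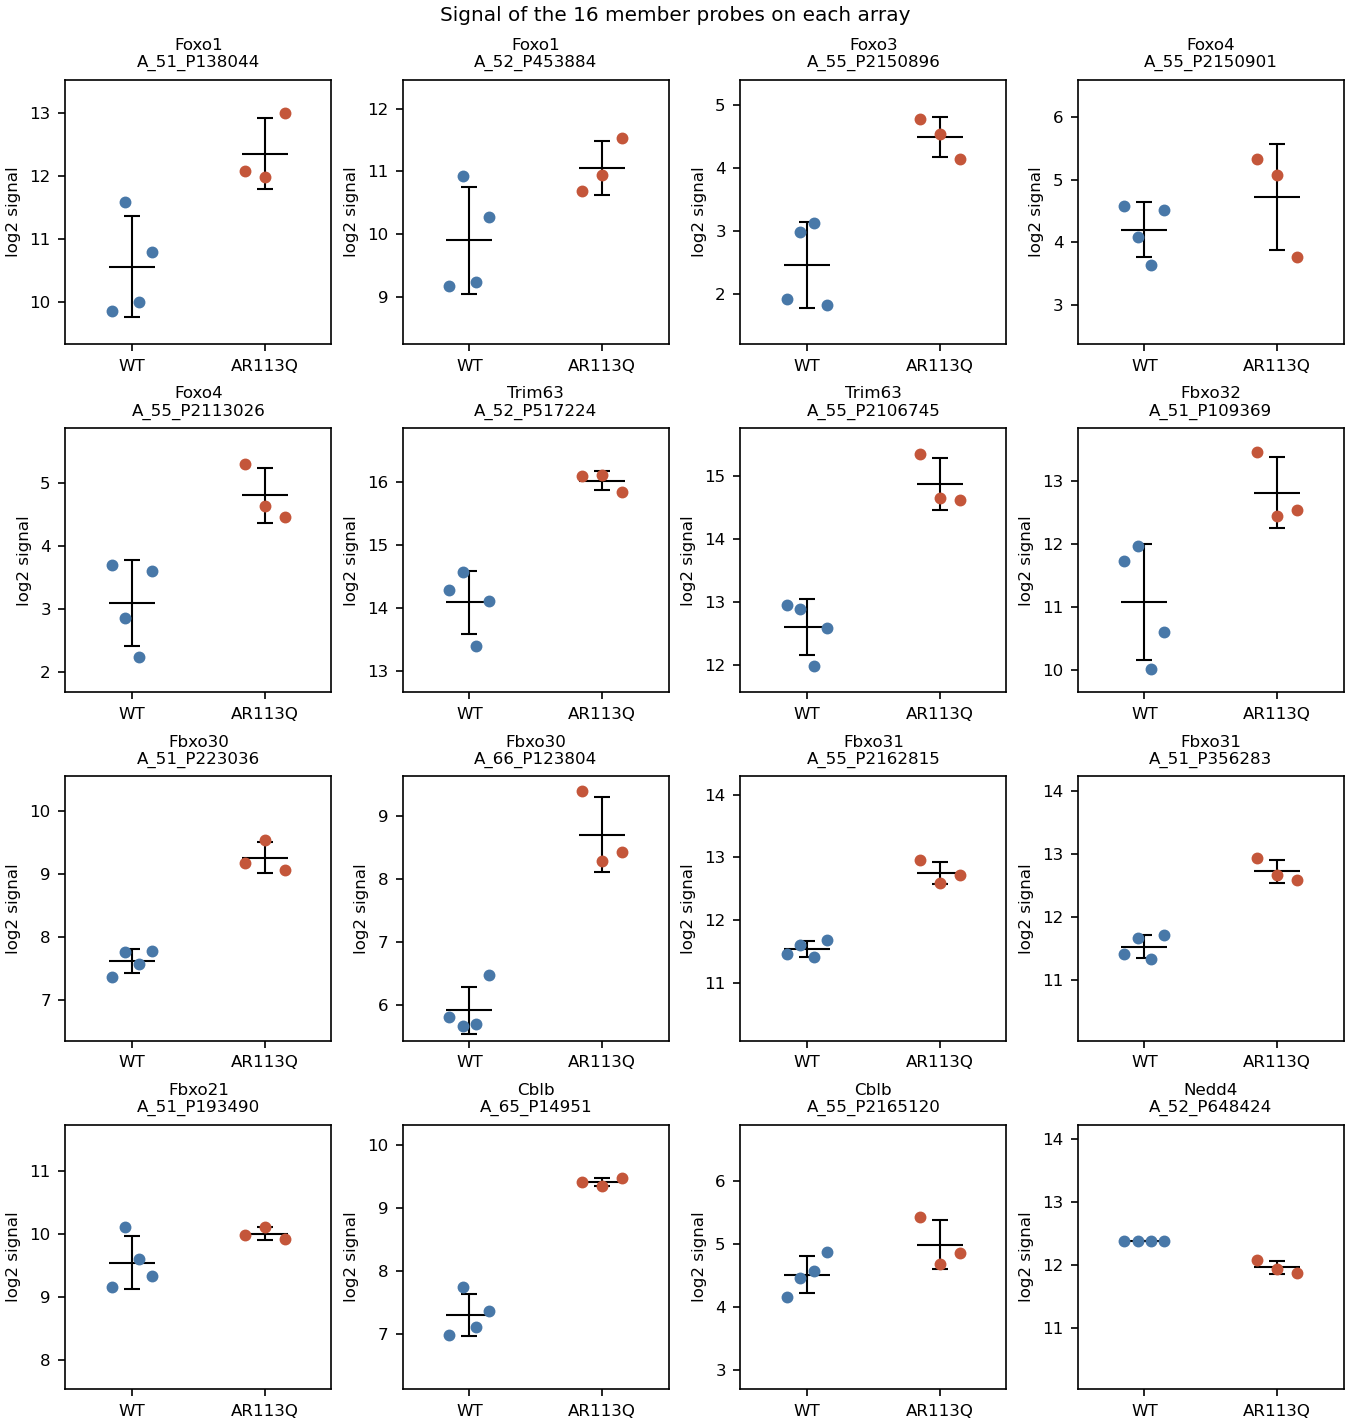
Each panel shows the log2 signal (vertical axis, the same span in each panel) of 1 member probe on the 4 WT arrays (blue) and the 3 AR113Q arrays (red), with the mean and SD in black. The AR113Q points lie above all WT points for 11 of the 16 probes, and below them for Nedd4.

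Among the factors, Foxo1, the most studied FOXO gene of muscle wasting, rose 3.47-fold. The brighter of its 2 probes read 9.86, 11.58, 9.998 and 10.80 on WT replicates 1 to 4 and 12.08, 11.98 and 13.00 on AR113Q replicates 1 to 3. The groups did not overlap, and WT replicate 2 came closest to the AR113Q arrays. The log2 difference was 1.79 (SE 0.44, limma adjusted p = 0.0125). The other probe read 9.19, 10.94, 9.24 and 10.28 on the WT arrays and 10.69, 10.94 and 11.53 on the AR113Q arrays. Here WT replicate 2 lay inside the AR113Q range, and the difference of 1.14 (SE 0.44) was not called (adjusted p = 0.0668). On slide 2 the differences of the 2 probes were 0.50 and -0.24. Without WT replicate 2 they were 2.14 and 1.49, and both probes were then called.

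Foxo3, which acts beside Foxo1 on the same ligase genes, was near the detection limit. Its probe, on chromosome 10 from 41905610 to 41905669, read 1.92, 2.98, 3.12 and 1.82 on the WT arrays, on none of which it was well above background. It read 4.79, 4.53 and 4.15 on the AR113Q arrays, well above background on all 3 of them. The measured log2 difference was 2.03 (limma adjusted p = 0.0029), and it was 1.81 on slide 2. The probe passed the filter on dim signals only through the AR113Q arrays, so that a difference was built into its selection and the p-value is not independent support. With WT signals raised to the lowest signal that counts as above background on each array, the difference was 1.60-fold. That value holds for the main background subtraction only. The call was lost with normexp background correction (0.30) and with the mean spot intensity without background subtraction (0.27).

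Foxo4, the X-linked FOXO gene, gave different readings from 2 probes that share most of their bases. The brighter probe read 4.58, 4.09, 3.64 and 4.51 on the WT arrays and 5.33, 5.08 and 3.77 on the AR113Q arrays. AR113Q replicate 3 fell among the WT arrays, and the difference of 0.52 (SE 0.40) was not called (limma adjusted p = 0.315). Without that array it was 1.0002 (adjusted p = 0.0275) and called. The dimmer probe read 3.70, 2.85, 2.24 and 3.61 on the WT arrays, all of them not well above background, and 5.30, 4.64 and 4.47 on the AR113Q arrays. The measured log2 difference of this probe was 1.71 (adjusted p = 0.00788), a call that was lost with normexp (0.27) and with the mean spot intensity (0.27). With WT signals raised to the lowest signal that counts as above background on each array, it was 1.98-fold, for the main background subtraction only. This probe too passed the filter only through the AR113Q arrays, and its p-value is not independent support. The 2 probes thus gave different calls, and the brighter one was well above background on 3 of 4 WT arrays.

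Foxo6, the remaining FOXO gene and not a member, went the other way. Its brighter probe read 10.57, 10.56, 10.62 and 8.95 on the WT arrays and 7.80, 7.88 and 9.11 on the AR113Q arrays. The groups overlapped, because WT replicate 4 lay below the other WT arrays and AR113Q replicate 3 above the other AR113Q arrays. The difference was -1.91 (SE 0.48, limma adjusted p = 0.0138), and it was -2.32 without WT replicate 4. The call was lost without AR113Q replicate 1 (adjusted p = 0.0558) or without AR113Q replicate 2 (adjusted p = 0.0516).

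Trim63, which encodes MuRF1, a RING ligase that acts on proteins of the sarcomere, rose on both of its probes. The brighter probe read 14.28, 14.57, 13.40 and 14.10 on the WT arrays and 16.09, 16.12 and 15.85 on the AR113Q arrays. The difference was 1.93 (SE 0.27, limma adjusted p = 0.00105), a 3.81-fold increase. The other probe read 12.95, 12.89, 11.98 and 12.59 on the WT arrays and 15.35, 14.65 and 14.63 on the AR113Q arrays, a 4.84-fold increase (log2 difference 2.27, SE 0.29, adjusted p = 0.000697). The lowest AR113Q array lay above the highest WT array on both probes, by more than the SD of either group. On slide 2 the differences were 1.53 and 2.46.

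Fbxo32, which encodes atrogin-1, the F-box protein that binds MyoD and the initiation factor eIF3f, had the widest spread among the WT arrays of the called members. Its only probe read 11.74, 11.97, 10.02 and 10.60 on the WT arrays and 13.47, 12.44 and 12.54 on the AR113Q arrays. The groups did not overlap, although WT replicates 1 and 2 lay within 1 log2 unit of the lowest AR113Q arrays. The difference was 1.74 (SE 0.49, limma adjusted p = 0.0222), a 3.33-fold increase, and it was 1.499 on slide 2. The call was lost without AR113Q replicate 1 (1.41, adjusted p = 0.0847), without WT replicate 4 (1.58, adjusted p = 0.0534), with array weights (adjusted p = 0.0556) and with no filter on dim probes (adjusted p = 0.0639).

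Fbxo30, an F-box gene also known as MUSA1 and induced in denervated muscle, rose on both probes. The brighter probe, on chromosome 10 from 11016601 to 11016660, read 7.36, 7.76, 7.57 and 7.78 on the WT arrays and 9.17, 9.53 and 9.06 on the AR113Q arrays, a difference of 1.64 (SE 0.18, limma adjusted p = 0.000435). The dimmer probe read 5.82, 5.67, 5.70 and 6.48 on the WT arrays and 9.40, 8.29 and 8.44 on the AR113Q arrays. Its difference of 2.79 (SE 0.31, adjusted p = 0.000435) was the largest of the 16 member probes in the main processing, a 6.92-fold increase. It came to 1.62 with normexp and 1.29 in the authors' normalized values, where the dimmer Trim63 probe had larger differences (2.21 and 2.23). On both probes all AR113Q arrays lay above all WT arrays.

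Fbxo31, an F-box gene known for its part in the turnover of cyclin D1, showed the smallest increase of the called members and the closest match between probes. The brighter probe, on chromosome 8 from 124073494 to 124073553, read 11.47, 11.61, 11.42 and 11.69 on the WT arrays and 12.95, 12.60 and 12.72 on the AR113Q arrays (difference 1.21, SE 0.16, limma adjusted p = 0.00081). The other probe read 11.42, 11.66, 11.34 and 11.73 on the WT arrays and 12.94, 12.66 and 12.59 on the AR113Q arrays (difference 1.20, SE 0.17, adjusted p = 0.00116). The 2 genotypes did not overlap on either probe.

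Fbxo21, the last F-box member, was not called. Its probe, on chromosome 5 from 118459897 to 118459956, read 9.15, 10.10, 9.59 and 9.33 on the WT arrays and 9.98, 10.11 and 9.91 on the AR113Q arrays. WT replicate 2 lay at the level of the AR113Q arrays and the other WT arrays lay below it. The difference was 0.46 (95% confidence interval -0.08 to 0.999, limma adjusted p = 0.147), and on slide 2 it was -0.12.

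Cblb, a RING ligase that targets signaling proteins, among them the insulin receptor substrate IRS-1 in unloaded muscle, rose 4.32-fold on its brighter probe. That probe, on chromosome 16 from 52207889 to 52207948, read 6.97, 7.74, 7.11 and 7.36 on the WT arrays and 9.41, 9.34 and 9.47 on the AR113Q arrays. The 3 AR113Q arrays lay close together, all above the WT arrays. The difference was 2.11 (SE 0.21, limma adjusted p = 0.000255), and it was 1.36 in the authors' normalized values, where it was still called. The dimmer probe read 4.16, 4.47, 4.58 and 4.87 on the WT arrays and 5.44, 4.68 and 4.86 on the AR113Q arrays. Its groups overlapped, and the difference of 0.48 (SE 0.24) was not called (adjusted p = 0.141).

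Nedd4, the HECT ligase of the set, was the only member with a lower signal in AR113Q muscle. Its probe, on chromosome 9 from 72597306 to 72597365, read 12.37, 12.37, 12.38 and 12.38 on the WT arrays and 12.08, 11.93 and 11.87 on the AR113Q arrays. All AR113Q arrays lay below all WT arrays, and the WT arrays spread least of all member probes (SD 0.0051, n = 4). The difference of -0.42 (SE 0.14) had an adjusted p of 0.0384 in limma but was under the fold threshold.

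**Figure D2:**
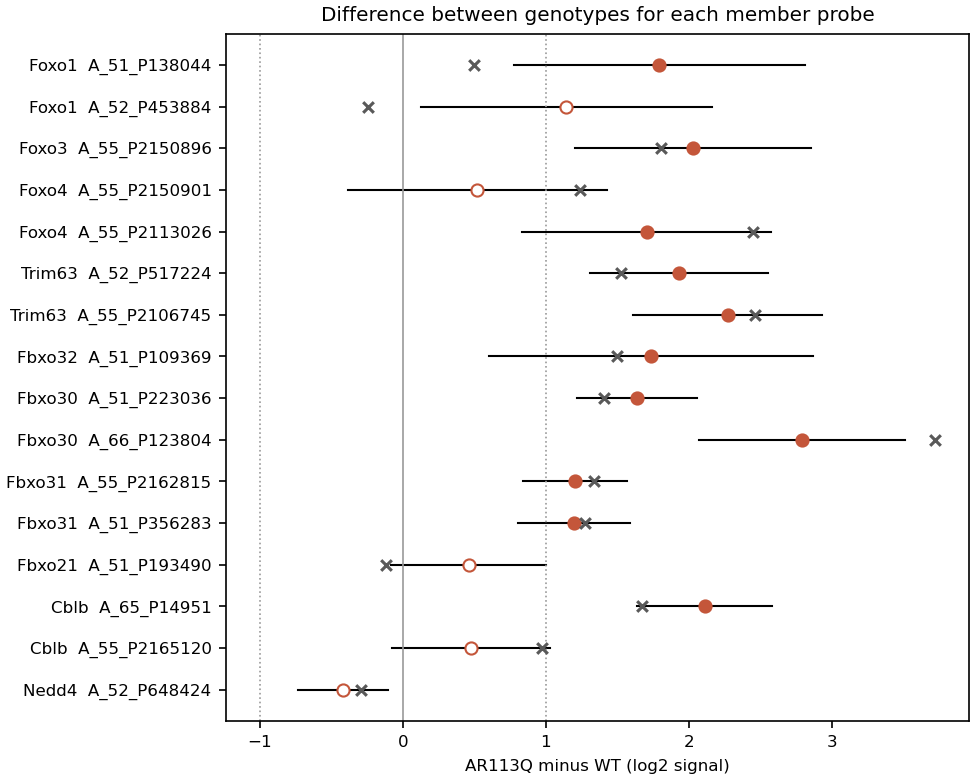
Points give the log2 difference AR113Q minus WT (horizontal axis) of each member probe with its 95% confidence interval, filled where the probe was called. Crosses give the difference between the 2 arrays of slide 2, and dotted lines mark the fold threshold at 1 and -1. The Foxo1 crosses (0.50 and -0.24) lie left of their intervals, and the dimmer Fbxo30 probe has the largest difference (2.79).

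Of the members, 6 were measured by 2 probes, and the probes were compared within each array. Among them, 3 genes (Trim63, Fbxo30 and Fbxo31) were called on both probes, and 3 (Foxo1, Foxo4 and Cblb) on 1. The difference between the probes (brighter minus dimmer) was 0.65 higher in AR113Q than in WT muscle for Foxo1 and 1.63 higher for Cblb, and it was lower for Fbxo30 (-1.15). In these 3 genes the genotypes did not overlap in that difference, and the exact two-sided permutation test over the 35 splits of the arrays gave p = 0.0571, the smallest it allows (0.0857 adjusted over the 6 pairs). The design can therefore not reach 0.05 in this test. The Fbxo30 gap depended on the processing, since its probes differed between genotypes by 1.24 and 1.62 with normexp and by 1.11 and 1.29 in the authors' values. The dimmer Cblb probe was well above background on 3 of 4 WT arrays. For Foxo4 nothing is read from the comparison, because the dimmer probe was not well above background on any WT array. For Trim63 (-0.34, exact permutation p = 0.171) and Fbxo31 (0.01, exact permutation p = 0.914) the genotypes overlapped.

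The called members differed in how steady they were across arrays. By the SD among WT arrays, Fbxo32 (0.93) and Foxo1 (0.80) varied most, followed by Trim63 (0.50), while Cblb (0.34), Fbxo30 (0.19) and Fbxo31 (0.12) varied least. Foxo3 is left out here, since its WT signals were not well above background. On the brightest probe of each gene, WT replicate 2 had the highest signal of the WT arrays for Foxo1, Trim63, Fbxo32 and Cblb, and WT replicate 3 the lowest for Trim63 and Fbxo32. Genes with the most similar pattern were sought among 13678 other genes well above background on all 7 arrays, by the root mean square difference of log2 values centred on their own mean. For Foxo1 these were Ucp3 (0.31), Fkbp5 (0.32) and Rrm2 (0.33), where the median over all genes was 1.11. For Trim63 they were Taf8 (0.19), 4931440P22Rik (0.19) and Apoc2 (0.23), with a median of 1.05. For Fbxo32 the nearest were 3 features that carry no gene symbol in the tables used here (0.41 to 0.45).

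A list of 23 tested genes held Foxo6 and genes that signal to FOXO factors. Of these, 7 rose and 3 fell (Foxo6 among the latter), beside 11.2% of all genes called higher and 13.1% called lower. The median log2 difference of the list was 0.47. Junb, an AP-1 factor known to hold back Foxo3 in muscle, was among those called higher, but it passed the filter through the AR113Q arrays. It read 3.38, 2.98, 3.89 and 5.13 on the WT arrays, of which 1 was well above background, and 8.69, 6.99 and 7.44 on the AR113Q arrays, and the difference of 3.86 came to 1.40 with normexp. Irs2, an insulin receptor substrate, rose by 1.58 (adjusted p = 0.0115), and Pik3ca, the catalytic subunit of PI3-kinase, by 1.38 (adjusted p = 0.000949), although the latter was under the fold threshold with normexp (0.76) and in the authors' values (0.59). Irs1, the other main insulin receptor substrate of muscle and a known target of Cblb, fell by 2.51 on the log2 scale (SE 0.30, adjusted p = 0.000542). It read 11.94, 10.81, 11.72 and 11.41 on the WT arrays and 8.75, 8.74 and 9.39 on the AR113Q arrays, with no overlap. Prkaa2, the AMPK subunit that predominates in muscle, fell by 1.34 (adjusted p = 0.000859), and Foxo6 fell as described above. Akt1 (0.93, limma adjusted p = 0.0213) was higher without overlap but under the fold threshold, and Akt2 (0.33, adjusted p = 0.272) was not called either.

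Of 21 FOXO target genes outside the members, 14 rose while none was called lower. The median log2 difference was 1.64, and 18 had a higher and 0 a lower signal at an unadjusted p under 0.05 in limma, where 24.9% of all genes were higher by that rule. Bcl2l11, 1 of the 14, was well above background on 1 WT array and all 3 AR113Q arrays. With only probes well above background on all 7 arrays, 13 of 20 targets were called. Cdkn1a, the cell cycle inhibitor p21, rose most (5.196, SE 0.42, adjusted p = 0.000135), from 9.36, 9.01, 7.74 and 9.70 on the WT arrays to 14.16, 14.00 and 14.28 on the AR113Q arrays. Sesn1, a stress-responsive inhibitor of mTORC1, read 4.75, 10.56, 10.08 and 10.06 on the WT arrays and 13.39, 13.57 and 13.61 on the AR113Q arrays. WT replicate 1 lay far below the other WT arrays. The Sesn1 difference was 4.66 (SE 1.27, adjusted p = 0.019) with that array and 3.29 (adjusted p = 0.000298) without it, and the call was lost without AR113Q replicate 1 or 2 and with no filter on dim probes. Gabarapl1, an ATG8 protein of the autophagosome, rose by 2.41 (SE 0.23, adjusted p = 0.000218). Other autophagy and lysosome genes of the list, Map1lc3b, Ulk1, Bnip3 and Ctsl, were called as well. Atg12 (0.55, limma adjusted p = 0.0207) and Pink1 (0.60, adjusted p = 0.0376) were not called, both being under the fold threshold. Sod2 (-0.11) and Cat (0.71), which encode antioxidant enzymes, and Cdkn1b (0.33), which encodes the cell cycle inhibitor p27, were not called either. On slide 2, 20 of the 21 genes were higher on the AR113Q array, against 48.2% of all genes.

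**Figure D3:**
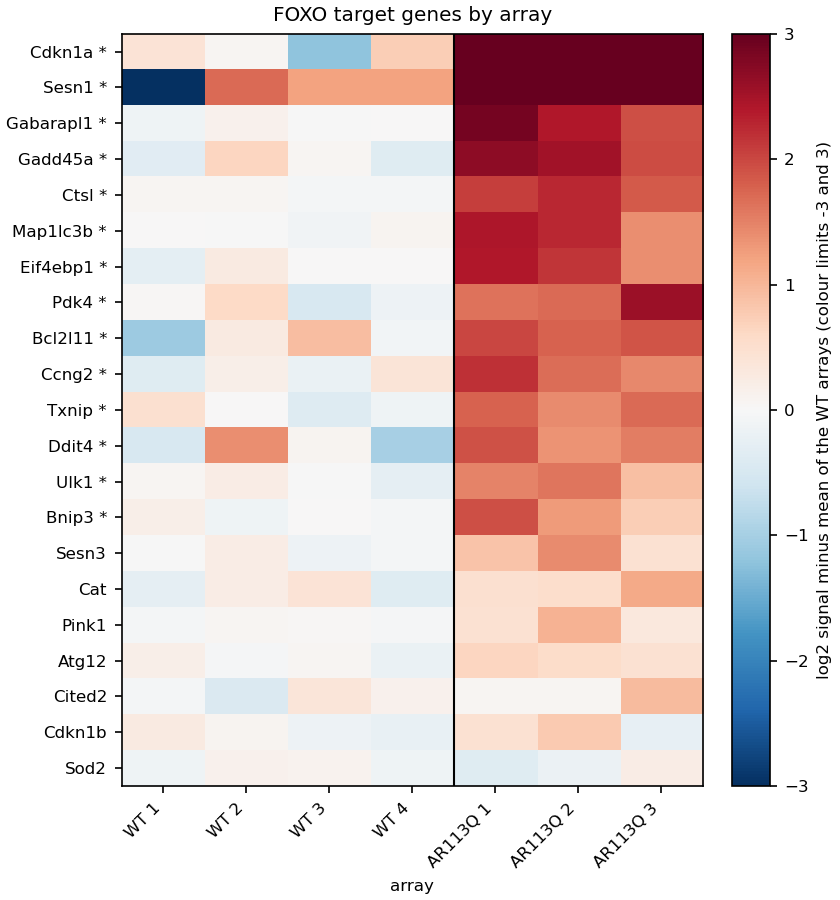
Colour gives the log2 signal of each FOXO target gene (rows) on each array (columns) minus the mean of the WT arrays, with colours limited at -3 and 3. An asterisk marks the 14 genes called higher. The AR113Q columns are red for these genes, and the blue cell in the Sesn1 row is WT replicate 1, at a log2 signal of 4.75.

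Of the other ubiquitin ligases of muscle, 2 of 21 tested rose and 4 fell, with a median log2 difference of 0.04, beside the same 11.2% and 13.1% of all genes. Siah1a, a RING ligase, rose by 2.62 (SE 0.27, limma adjusted p = 0.000329) and Smurf1, a HECT ligase of BMP signaling, by 1.46 (adjusted p = 0.00347). In the authors' values the differences were 0.96 and 0.60, under the fold threshold. Asb2, the SOCS-box ligase subunit that acts on filamin B and desmin, fell by 1.83 (SE 0.35, adjusted p = 0.00404). Trim32, a RING ligase mutated in a limb-girdle muscular dystrophy, fell by 1.32 (adjusted p = 0.000489), and Wwp1, a HECT ligase of the Nedd4 family, by 1.06 (adjusted p = 0.00118). Wwp1 was under the threshold with normexp (-0.79), with the mean spot intensity (-0.85), in the authors' values (-0.72) and without AR113Q replicate 1 (-0.97). The remaining called gene was Fbxo40, an F-box gene of muscle, at the fold threshold (-1.003). Without AR113Q replicate 1 the number of genes called lower was 2. Trim54 and Trim55, the closest relatives of Trim63, were not called (0.04 and -0.72).

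Across the wider families, 4 of 25 other Fbxo genes tested rose and 2 fell, and 2 of 37 other Trim genes rose and 9 fell. Of all genes, 11.2% were called higher and 13.1% lower. These families include 5 genes already counted among the other ligases (Fbxo40, Trim32, Trim54, Trim55 and Trim72). Leaving out 1 array moved some counts, to 1 Fbxo gene called lower (WT replicate 1 or 4, AR113Q replicate 1 or 2) and to 4 Trim genes called higher (AR113Q replicate 3). Fbxo4 had the largest increase of the Fbxo genes (1.46, adjusted p = 0.00242 in limma) and Fbxo27 the largest decrease (-1.22, adjusted p = 0.00256). Trim16 (1.98, adjusted p = 0.000814) and Trim14 (-1.73, adjusted p = 0.00619) were the extremes of the Trim genes. The differences of Fbxo27 and Trim14 came to -0.31 and -0.27 in the authors' values, under the fold threshold.

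In the shared machinery of ubiquitin conjugation, 6 of 25 genes tested were called higher and 2 lower, beside 11.2% and 13.1% of all genes. The median was 0.46. Nploc4, a cofactor of the p97 segregase, rose most (1.96, SE 0.29, limma adjusted p = 0.00138), followed by the deubiquitinase Usp19 (1.41, adjusted p = 0.000469) and the ubiquitin-binding autophagy receptor Sqstm1 (1.35, adjusted p = 0.00582). Cul1, the scaffold of SCF complexes, rose as well (1.01), whereas Skp1 (0.29) and Rbx1 (0.21), the other shared SCF subunits, were not called. Ube2n, an E2 enzyme of K63-linked chains, fell by 2.07 (SE 0.32, adjusted p = 0.00169), and Zfand5, a proteasome-binding protein, by 1.49 (adjusted p = 0.00383). Beside the same shares of all genes, 0 of 7 tested genes for known substrates of the ligases rose and 2 fell. These were Myod1 (-3.98, SE 0.27, adjusted p = 8.58e-05), a substrate of atrogin-1, whose difference was -1.94 with normexp and -1.24 in the authors' values, and Mylpf (-1.37, adjusted p = 0.004), a myosin light chain bound by MuRF1. These are RNA levels, and no protein was measured on these arrays.

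**Figure D4:**
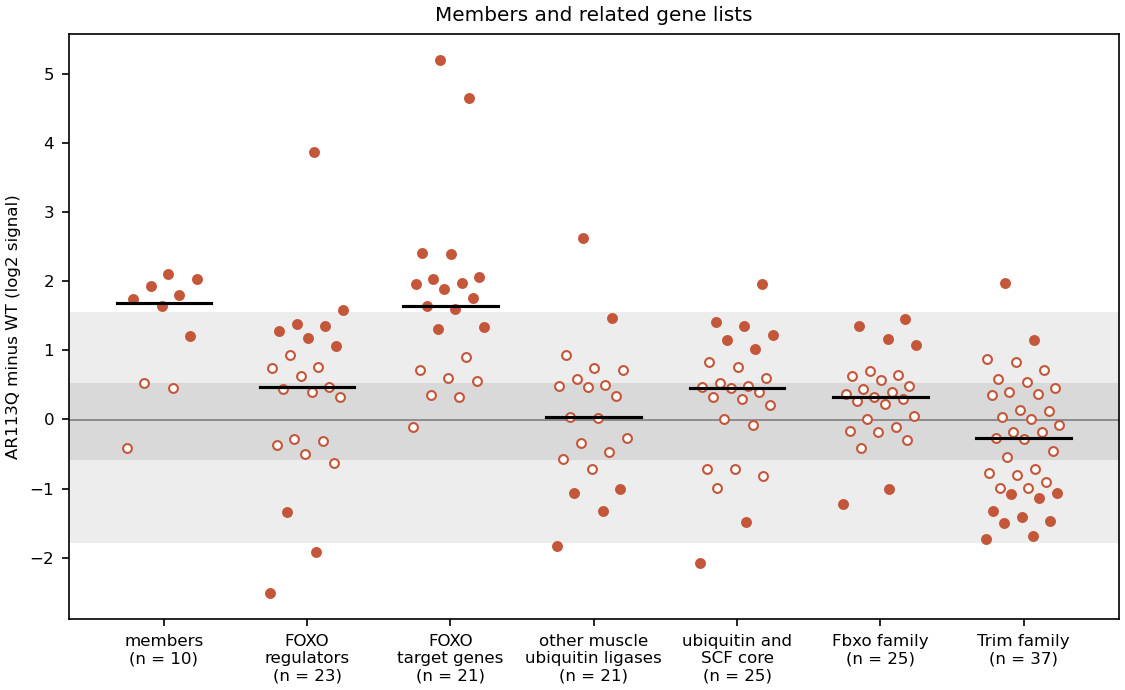
Points give the log2 difference AR113Q minus WT (vertical axis) of each tested gene by its brightest kept probe, filled where called, with the list median as a black bar. The grey bands run from the 25th to the 75th and from the 5th to the 95th percentile of all genes tested. The medians of the members (1.69) and the FOXO target genes (1.64) lie above the bands' centre, and those of the other ligases (0.04) and the Trim family (-0.26) near or below it.

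The promoter of Trim63 is shown because, of the member promoters available, only it held GTAAACA, the core of the DNA motif bound by FOXO factors. The 250 bases upstream of the RefSeq start are chr4:134314870-134315119 on the plus strand of GRCm38.p6, with the match in capitals as its reverse complement TGTTTAC, 194 to 188 bases upstream of the start.
Trim63 promoter: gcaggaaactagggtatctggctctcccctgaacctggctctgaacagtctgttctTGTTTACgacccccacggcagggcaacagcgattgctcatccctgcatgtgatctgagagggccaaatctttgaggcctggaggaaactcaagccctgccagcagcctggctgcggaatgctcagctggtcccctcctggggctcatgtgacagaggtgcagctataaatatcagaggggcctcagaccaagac
Promoters of 300 bases (250 upstream and 50 downstream of the start) were available for 8 of the 10 members, 9 promoters in all. Both strands were searched. Fbxo32 and Foxo4 had no promoter available and were not searched. The motif was present in 1 of these 9, in 3 of 22 promoters of FOXO target genes (Bcl2l11, Sesn1 and Txnip) and in 1199 of all 32851 promoters (3.65%). A match is a description of the sequence and not a binding site.

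The arrays measured whole muscle, in which fewer cells of a type and less RNA per cell cannot be told apart. The counts of called markers stand beside 11.2% of all genes called higher and 13.1% called lower. The muscle fiber markers tested were bright, with a summed intensity of 638188 to 774762 on the WT arrays and 462991 to 743088 on the AR113Q arrays, and 1 of 7 was called (Actn2, 1.09, without WT replicate 1, on which its spot was an outlier and left out). That count was 0 when WT replicate 2, 3 or 4 was left out, and when AR113Q replicate 2 or 3 was. Another 2 fiber markers had a lower signal at an unadjusted p under 0.05, Ckm (-0.80, limma adjusted p = 0.0101) and Acta1 (-0.60, adjusted p = 0.072), both under the fold threshold. Of the fast fiber markers 0 of 8 were called in limma, with 1 at an unadjusted p under 0.05 (lower). Slow fiber markers varied among arrays of both genotypes, from 1253 to 32770 in WT and from 1199 to 82514 in AR113Q muscle, and 1 of 7 was called (Atp2a2, higher), but 0 when WT replicate 1 or 4 was left out, and when AR113Q replicate 1 or 3 was. Among markers of other cell types, adipocyte markers were called lower in 4 of 5 genes, with a summed intensity of 32470 to 64723 in WT and 10968 to 19664 in AR113Q muscle. Fibroblast markers were called lower in 3 of 6 (Col1a1, Col3a1 and Lum), with sums of 76280 to 91560 and 72165 to 97373. Macrophage markers were called lower in 2 of 6 and higher in 1 (5991 to 10517 in WT, 3985 to 5472 in AR113Q), Schwann cell markers lower in 2 of 5 (1173 to 3054 and 780 to 827) and satellite cell markers lower in 1 of 3 (1054 to 1518 and 852 to 1356). The Schwann cell count was 0 when replicate 1 or 2 of either genotype was left out and 1 when replicate 3 of either was. Of the macrophage markers, 1 was called lower without WT replicate 1 and 0 higher without AR113Q replicate 2. Endothelial (0 of 5) and erythrocyte markers (0 of 4) were not called in limma, with 1 higher endothelial and 1 lower erythrocyte gene at an unadjusted p under 0.05 (1 erythrocyte gene was called lower without WT replicate 2), and their sums were 2216 to 2553 and 44409 to 214208 in WT and 1899 to 2722 and 45185 to 57713.5 in AR113Q muscle. The part of these shifts in the increase of the FOXO genes and ligases was not tested.

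**Figure D5:**
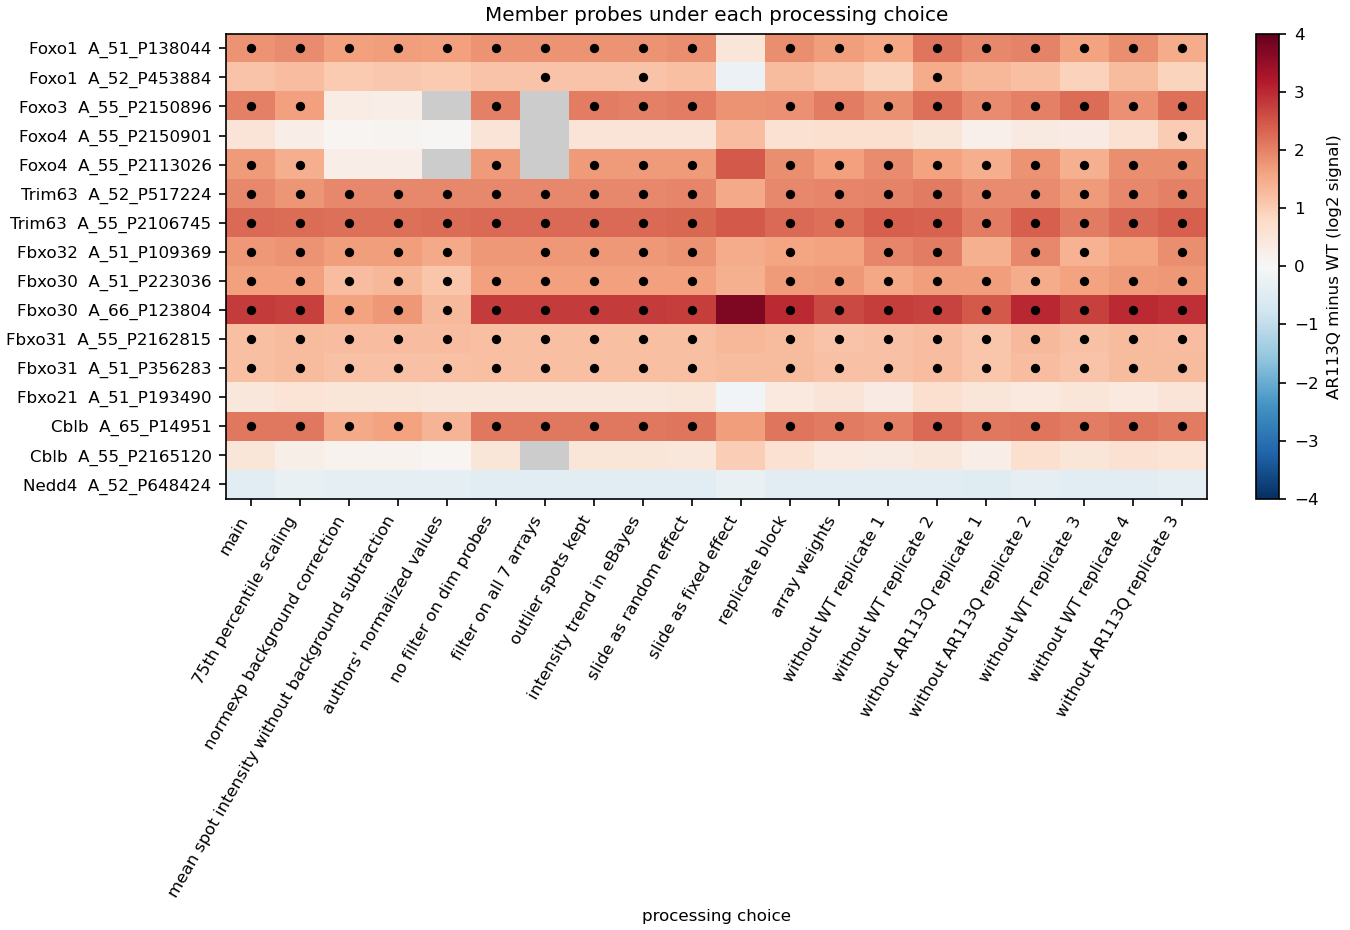
Colour gives the log2 difference AR113Q minus WT of each member probe (rows) under each processing choice (columns), a black dot marks a call, and grey marks a probe outside the table or filter of that choice. Both Trim63 probes were called in 18 of 19 alternatives and Fbxo32 in 14 of 19, and no probe was called with slide as a fixed effect.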

How the data were processed

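The authors scanned 1-colour Agilent arrays and extracted spots with Feature Extraction 10.7.3.1. The deposited files hold an intensity per spot, from which the software had subtracted background but which was not scaled across arrays. The authors also deposited log2 values, described as quantile normalized, for 18592 probes.

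Here control spots and spots marked as outliers were left out, log2 intensities were quantile normalized and spots of a probe were averaged. A probe was kept if it passed the background test on 3 or more of the 7 arrays. WT and AR113Q arrays were tested for differences by lmFit and eBayes of limma 3.58.1 (R 4.3.3) with Benjamini-Hochberg adjustment over 20991 probes. The procedure was tested on simulated data. RefSeq accessions (GRCm38.p6 tables, names and promoters only) named 28330 of 39429 probes. The members and lists were chosen with earlier results of these data known. Named genes were all members, Foxo6, the called genes with the largest increase and decrease of each list (up to 3 each in the FOXO, other ligase and ubiquitin lists), and the 3 most similar genes of Foxo1, Trim63 and Fbxo32. Akt1, Akt2, Cul1, Skp1, Rbx1, Trim54, Trim55, Trim72, Fbxo40, marker genes and the uncalled or further FOXO targets were named after their values were seen. Some items named by this rule are not reported here. P-values measure the spread between these arrays.

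Alternatives were other scaling (75th percentile), background correction (normexp with an offset of 50, or mean spot intensity), the authors' log2 values, filters, outlier spots, an intensity trend, slide effects, a replicate block, array weights, gene-level fits, no fold threshold and each array left out. Counting any kept probe of a gene, or only genes above background on all arrays, was added after the data were examined.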

Additional observations from a re-analysis of the deposited data

Results flagged for a closer look

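In 106 probes of the members and the FOXO, ligase and ubiquitin lists, the highest and the lowest of the 4 WT arrays were set against the others by Dixon's test, which marks about 1 in 20 groups by chance, and 4 probes were marked. Sesn1 read 4.75321 on WT replicate 1 and 10.06 to 10.56 on the other WT arrays. Foxo6 (brighter probe) read 8.95106 on WT replicate 4 and 10.56 to 10.62 on the others. Smurf1 read 6.83896 on WT replicate 1 against 6.07 to 6.17, and Crebbp, a histone acetyltransferase that acts on FOXO factors, read 11.704 on WT replicate 1 against 11.29 to 11.33. None of the 16 member probes was marked.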

How the results depend on the processing

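With slide as a fixed effect only the 2 arrays of slide 2 estimate the difference, and limma called 0 member genes, 0 member probes, 0 context list genes, 0 FOXO target genes and 0 of all probes, although 5, 10, 48, 12 and 7928 of them had an unadjusted p under 0.05. In that fit 2 values turned sign, those of the dimmer Foxo1 probe (-0.24) and of Fbxo21 (-0.12). The count over all probes, 5208, was 2088 with normexp, 2264 with the mean spot intensity, 1592 of 18592 with the authors' values and 9199 without a fold threshold, and it lay between 4454 and 5563 with 1 array left out. The genes called in the 4 context lists, 38, became 61 without a fold threshold. Member genes called lay between 6 and 8 under all other alternatives, 8 counting any probe and 6 without AR113Q replicate 1 or WT replicate 4. FOXO target genes called higher lay between 12 and 17. Replicate numbers did not pair the samples (r of 0.04, -0.02 and 0.16 between same-numbered arrays), and a replicate block, in which WT replicate 4 has no partner, gave 7 member genes and 5190 probes. Among dim member probes, those of Foxo3 and the dimmer Foxo4 probe changed most with background subtraction. The brighter Foxo4 probe (from 0.52 to 1.24) and the dimmer Cblb probe (from 0.48 to 0.97) changed most with slide as a fixed effect. The numbers of arrays, 3 against 4, limit every call.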

Other observations

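Genes that rise when muscle loses its nerve supply were tested as a further list. Of 9 genes, 4 were called higher and none lower in limma (1 was lower at an unadjusted p under 0.05), beside 11.2% of all genes called higher and 13.1% called lower. Runx1, a transcription factor induced by denervation, rose most, from 4.37, 4.998, 4.99 and 5.10 on the WT arrays to 10.89, 9.79 and 10.76 on the AR113Q arrays (difference 5.62, SE 0.30, adjusted p = 4.5e-05). It was well above background on 3 of 4 WT arrays, and the difference was 3.36 with normexp and 2.83 in the authors' values. Chrna1 (1.77) and Musk (1.62), components of the neuromuscular junction, and Gadd45a (2.39), which is also in the FOXO target list, were the other 3. Chrnd (0.20), Myog (-0.20), Hdac4 (0.05) and Ncam1 (-0.68) were not called.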
